A study of Mus musculus with 12 samples.

Results

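The values below describe 10 genes of the synthesis, salvage and turnover of nicotinamide adenine dinucleotide (NAD) in C2C12 cells, a mouse myoblast line that leaves the cell cycle and forms myotubes when it differentiates. The genes were listed by symbol for what their enzymes do, with no threshold on a measured value, but with earlier results of these data known. They are *Nampt*, *Nmnat1*, *Nmnat3*, *Nmrk1*, *Nmrk2*, *Nnmt*, *Aox1*, *Aox3*, *Nt5e* and *Enpp1*, and each matched 1 of the 46983 rows of the table by its Ensembl identifier. All 10 were among the 18023 genes tested, a set that excludes genes with fewer than 3 libraries at 0.1 FPKM or more among the 12. *Aox3* reached that level in 0 of the 6 libraries of 0d and *Nmrk2* in 1, so both passed through their 5d libraries and by the filter had to be higher on 5d, while the other 8 genes would have passed on 0d libraries alone. FPKM is the number of sequenced fragments on a gene per kilobase of its transcript, scaled to the mapped fragments of the library.

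RNA was sequenced in 4 groups of 3 libraries. WT_0d and WT_5d were wild type control cells of the PB-IP group, named for the PiggyBac vector PB-IP, taken as myoblasts (0d) and on day 5 of differentiation (5d). PPARγ/+_0d and PPARγ/+_5d were cells that carried that vector with the coding sequence of PPARγ, a nuclear receptor that drives fat cell formation, taken on the same days. The PPARγ/+ cells were selected with puromycin for positive clones, and how many clones there were, or whether the control cells were selected in the same way, is not given in the sources used here. The series' own design text differs on one point, since it calls the PPARγ cells inducible and the uninduced cells controls. The libraries are called triplicates, and nothing says whether they came from separate transfections, so that p-values measure only the spread between these libraries.

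NAD carries electrons in energy metabolism and is broken down to nicotinamide by sirtuins and poly-ADP-ribose polymerases. Most cells rebuild it from nicotinamide through nicotinamide mononucleotide (NMN), which Nampt makes and the Nmnat enzymes join to an adenylate. NMN is also made from nicotinamide riboside by the kinases Nmrk1 and Nmrk2, and Nmrk2 is known as the form of skeletal muscle. Nicotinamide leaves the cycle when Nnmt methylates it, after which aldehyde oxidases turn the product into pyridones. Outside the cell, Enpp1 can split NAD to NMN and Nt5e (CD73) can take the phosphate off NMN.

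The starts of 4 of these genes are shown because they pair a gene that rose many-fold (*Nmrk2*) with the sister kinase that was not called (*Nmrk1*), and the gene that differed between the cell types on 0d (*Enpp1*) with one that was called in no comparison (*Nampt*). Each run holds 300 bases of GRCm38.p6 from RefSeq, 250 before and 50 after the start site, in the direction of the gene. Capitals mark CAGCTG and CAGGTG (or CACCTG), 2 forms of the E-box that myogenic factors bind, and AGGTCA (or TGACCT), the half-site of nuclear receptors. Both strands were searched.

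Nmrk2 (chr10:81201988-81202287, strand -): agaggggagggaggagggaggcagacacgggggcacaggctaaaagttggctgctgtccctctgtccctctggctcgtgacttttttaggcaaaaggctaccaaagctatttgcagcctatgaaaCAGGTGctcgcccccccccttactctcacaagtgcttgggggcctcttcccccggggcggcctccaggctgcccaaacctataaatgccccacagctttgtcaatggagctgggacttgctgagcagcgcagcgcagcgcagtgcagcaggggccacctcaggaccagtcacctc
Nmrk1 (chr19:18631766-18632065, strand +): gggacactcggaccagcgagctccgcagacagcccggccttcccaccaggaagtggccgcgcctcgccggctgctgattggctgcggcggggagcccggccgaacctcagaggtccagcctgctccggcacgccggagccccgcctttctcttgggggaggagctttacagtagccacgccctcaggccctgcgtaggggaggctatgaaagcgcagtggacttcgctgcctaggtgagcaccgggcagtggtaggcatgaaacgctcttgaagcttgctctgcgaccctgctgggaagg
Enpp1 (chr10:24712110-24712409, strand -): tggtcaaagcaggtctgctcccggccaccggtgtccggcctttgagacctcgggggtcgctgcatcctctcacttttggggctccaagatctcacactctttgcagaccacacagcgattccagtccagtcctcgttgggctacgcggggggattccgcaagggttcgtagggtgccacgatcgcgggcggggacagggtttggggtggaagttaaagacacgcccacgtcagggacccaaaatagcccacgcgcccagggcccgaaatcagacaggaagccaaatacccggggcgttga
Nampt (chr12:32820085-32820384, strand +): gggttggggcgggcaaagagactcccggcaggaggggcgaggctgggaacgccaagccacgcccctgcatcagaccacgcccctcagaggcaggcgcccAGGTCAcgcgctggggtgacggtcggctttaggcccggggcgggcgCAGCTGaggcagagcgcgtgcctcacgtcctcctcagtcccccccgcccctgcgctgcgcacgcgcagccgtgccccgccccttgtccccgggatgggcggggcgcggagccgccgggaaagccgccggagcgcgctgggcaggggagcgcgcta

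*Nmrk2* held 1 CAGGTG, which began 125 bases before the start. *Nampt* held 1 CAGCTG that began 105 bases before the start and 1 AGGTCA that began 151 bases before it, while *Nmrk1* and *Enpp1* held none of these letters. RefSeq promoters were found for 9 of the 10 genes, all but *Nnmt*. Among the other 5, *Nmnat3* held 1 AGGTCA that began 23 bases after its start, and *Aox1*, *Aox3* and *Nt5e* held none. *Nmnat1* has 2 start sites with overlapping windows, and the same single CAGGTG lay before both. Of 32544 mouse promoters of this length, 16.4% held CAGCTG, 20.3% CAGGTG and 16.2% AGGTCA. A direct repeat of AGGTCA with 1 base between, the element of PPAR with its partner RXR, was in 0.0399% of them and in none of the 9 genes, and neither were a CArG box (1.64% of promoters) or a MEF2 site (3.16%). These matches describe letters in the window and say nothing of binding.

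*Pparg* itself lay between 5.10 and 7.56 FPKM in WT_0d, between 3.12 and 4.59 in WT_5d, between 28.0 and 46.4 in PPARγ/+_0d and between 40.1 and 92.7 in PPARγ/+_5d, so the libraries matched their labels. The libraries held 15556526 to 22010875 fragments assigned to genes. The labelled cell type was seen in the markers, since 19 of 20 muscle genes reached 1 FPKM in WT_5d and 17 in PPARγ/+_5d. On 0d the cell types already differed, with 12 of these genes at 1 FPKM in WT_0d and 8 in PPARγ/+_0d. Their summed FPKM was 141 to 372 in WT_0d and 65.4 to 109 in PPARγ/+_0d. Replicate 3 of WT_5d stood apart: its summed FPKM over the 20 muscle genes was 1568, against 7257 and 5423 in replicates 1 and 2, and 1574 to 1853 in PPARγ/+_5d. The summed level of 10 adipocyte genes was 16.3 to 19.7 FPKM in WT_5d and 61.7 to 152 in PPARγ/+_5d. *Lep* was at 0 in all libraries, *Pck1* in all libraries of every group but WT_5d, and *Cidec* in all libraries of WT_0d and WT_5d. The summed level of 7 fibroblast genes was 258 to 344 FPKM in WT_0d and 904 to 1480 in WT_5d, and 182 to 262 in PPARγ/+_0d and 1409 to 1492 in PPARγ/+_5d. The summed level of 10 proliferation genes was 278 to 439 FPKM on 0d and 45.8 to 59.5 on 5d, and 6 macrophage genes summed to at most 8.07. The part of these shifts in the results below was not tested, and in bulk RNA a change in the number of cells of a type cannot be told apart from a change within cells.

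The 10 genes fall into 3 arms: salvage, nicotinamide turnover and breakdown outside the cell. From 0d to 5d none of them fell past the thresholds, and *Enpp1* and *Nt5e*, of breakdown outside the cell, were called higher in both cell types. Of the turnover genes, *Nnmt* alone was called in WT cells, at the edge of the 2-fold threshold. *Aox3* was called there as well when 0.01 in place of 0.1 was added to the FPKM. Of the salvage genes, *Nmrk2* alone was called in PPARγ/+ cells, and by the filter it had to be higher on 5d. A gene was called between days at an unadjusted limma p of at most 0.05 with a change of at least 2-fold on log2(FPKM + 0.1), which draws the changes of low genes toward 0. In WT cells 5 of the 10 genes were called higher (*Nmrk2*, *Enpp1*, *Nt5e*, *Nmnat3* and *Nnmt*), and 0 were called lower, while 8.94% of all genes tested were called higher and 7.53% lower. In PPARγ/+ cells 6 were called higher (*Nmrk2*, *Enpp1*, *Nnmt*, *Nt5e*, *Aox1* and *Aox3*), and 0 lower, against 9.11% and 6.06% of all genes. The median log2 change of the 10 genes was 0.87 for WT and 1.18 for PPARγ/+, and that of all genes was −0.08 and −0.10. The filter let *Nmrk2* and *Aox3* through only by their 5d libraries. Without these, 4 of the other 8 genes were called higher in each cell type, with median log2 changes of 0.70 and 0.99. Because the 10 genes were chosen with earlier results of these data known, a share above that of all genes is no test of the pathway. The libraries of the 2 days did not overlap for 6 genes in WT cells and for 8 in PPARγ/+ cells. This was the case for 51.1% and 58.1% of all genes. Both counts hold *Nmrk2* and *Aox3*, which by the filter had to be higher on 5d.

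**Figure D1:**
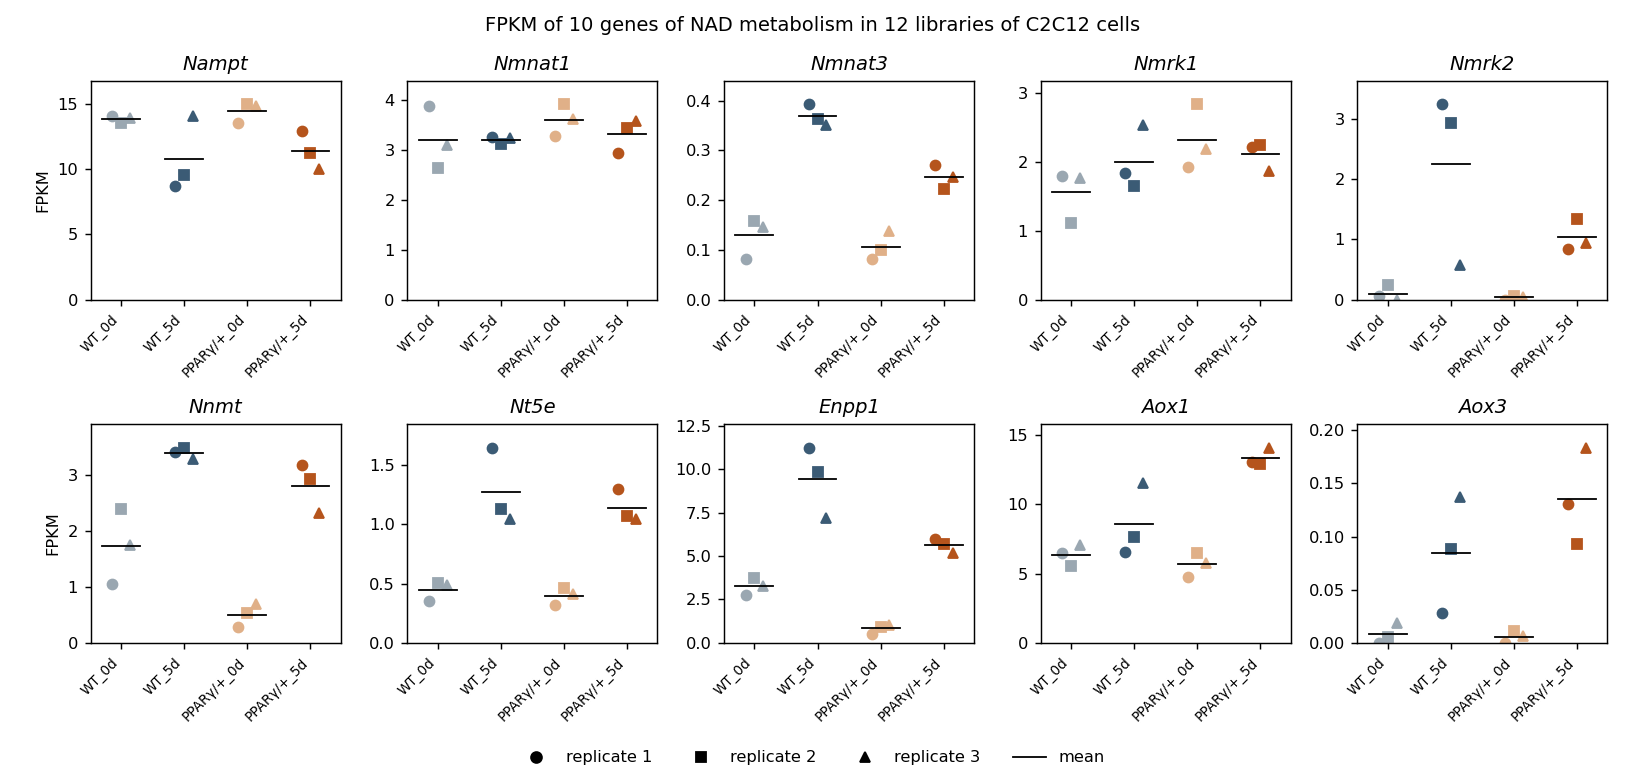
FPKM (vertical axis, from 0, with its own scale for each gene) of the 10 genes in the 3 libraries of each group, with the group mean as a line. *Nmrk2*, *Nt5e*, *Enpp1*, *Nmnat3* and *Aox3* lay higher in every 5d library than in every 0d library of both cell types. *Nmrk2* and *Aox3* passed the filter only through their 5d libraries. Among all genes the days did not overlap for 51.1% in WT cells and 58.1% in PPARγ/+ cells. WT_5d replicate 3 (dark triangle) lay apart for *Nmrk2*, *Nampt* and *Aox1*.

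*Nampt* (ENSMUSG00000020572, chromosome 12 of GRCm38 from 32819545 to 32853349), the rate-limiting enzyme of the salvage from nicotinamide, had the highest level of the 10 genes in 3 of the 4 groups. Its FPKM was 14.02, 13.5 and 13.9 in WT_0d and 8.71, 9.56 and 14.1 in WT_5d. It was 13.5, 14.9 and 14.8 in PPARγ/+_0d and 12.9, 11.2 and 10.01 in PPARγ/+_5d. All PPARγ/+_5d libraries lay below those of PPARγ/+_0d, whereas WT_5d replicate 3 lay at the level of 0d and the other two below it. *Nampt* was not called in either cell type. Its log2 changes were −0.39 (SE 0.18, adjusted p = 0.137) for WT and −0.35 (SE 0.10, adjusted p = 0.0270) for PPARγ/+ cells, where the mean level was 1.27-fold lower on 5d and so short of 2-fold.

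*Nmnat1* and *Nmnat3* encode the nuclear and the mitochondrial enzyme that complete NAD from NMN. *Nmnat1* (ENSMUSG00000028992) had a mean of 3.19 ± 0.63 FPKM (SD, n = 3) in WT_0d, 3.20 ± 0.0828 in WT_5d, 3.60 ± 0.312 in PPARγ/+_0d and 3.32 ± 0.336 in PPARγ/+_5d. The days overlapped in both cell types, and the cell types overlapped on both days. The 95% interval of the log2 change from 0d to 5d ran from −0.36 to 0.40 in WT cells and from −0.38 to 0.15 in PPARγ/+ cells. *Nmnat3* (ENSMUSG00000032456, chromosome 9 from 98287435 to 98420438) was a low gene of 8 to 50 fragments per library. Its FPKM was 0.0824, 0.158 and 0.147 in WT_0d against 0.392, 0.362 and 0.351 in WT_5d, with no overlap. In PPARγ/+ cells it was 0.0819, 0.0996 and 0.137 on 0d against 0.270, 0.223 and 0.247 on 5d, again with no overlap. *Nmnat3* rose in WT cells by 1.05 on the log2 scale (SE 0.23, adjusted p = 0.0139). In PPARγ/+ cells its log2 change was 0.76 (SE 0.21, adjusted p = 0.0233), short of 2-fold on log2(FPKM + 0.1) although the ratio of mean FPKM was 2.32, and the call was made when 0.01 was added in place of 0.1 (1.17). The WT call was lost without WT_0d replicate 1 (log2 change 0.89) and with 1 added to the FPKM (0.28). It was also lost under quantile normalization (0.90) and with weights for the quality of each library (0.98). *Nmnat3* made up 4.11% of the summed FPKM of both genes in WT_0d and 10.3% in WT_5d, and 2.87% and 6.99% in PPARγ/+ cells. This sum leaves out *Nmnat2*, which is not one of the genes described here. *Nmnat2* had mean levels of 3.19 FPKM in WT_0d, 3.39 in WT_5d, 3.03 in PPARγ/+_0d and 3.62 in PPARγ/+_5d.

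Of the nicotinamide riboside kinases, *Nmrk2* was called in both cell types and *Nmrk1* in neither. *Nmrk1* (ENSMUSG00000037847, chromosome 19 from 18631950 to 18652428), the broadly expressed form, had a mean of 1.56 ± 0.384 FPKM in WT_0d and 2.002 ± 0.470 in WT_5d, and of 2.32 ± 0.467 in PPARγ/+_0d and 2.11 ± 0.210 in PPARγ/+_5d. Its days overlapped in both cell types, with log2 changes of 0.35 (95% interval −0.25 to 0.95) in WT cells and −0.12 (−0.50 to 0.27) in PPARγ/+ cells. These intervals lay below those of *Nmrk2*, which ran from 1.67 to 5.22 and from 2.39 to 3.72. Since *Nmrk2* passed the filter only through its 5d libraries, its change was bound to be a rise. The intervals are therefore no test of the kinases against each other.

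*Nmrk2* (ENSMUSG00000004939, chromosome 10 from 81198170 to 81202051), the muscle form, was close to the limit of detection on 0d. Its FPKM was 0.0560, 0.237 and 0 in WT_0d, from 2, 11 and 0 fragments, and 3.24, 2.93 and 0.573 in WT_5d. In PPARγ/+ cells it was 0, 0.0625 and 0.0498 on 0d, from at most 3 fragments, and 0.839, 1.34 and 0.936 on 5d. Every 5d library lay above every 0d library, but WT_5d replicate 3 lay below all PPARγ/+_5d libraries while replicates 1 and 2 lay above them. *Nmrk2* rose in WT cells by 3.45 on the log2 scale (SE 0.74, adjusted p = 0.0127), a ratio of means of 23.0. That ratio rests on WT_0d replicate 2. Without it, and against a floor of 3 fragments in the other 2 WT_0d libraries, the mean of WT_5d was at least 29.1-fold higher. The ratio of means was lower without WT_0d replicate 1 (19.0) or WT_0d replicate 3 (15.3). The mean of WT_5d rests mostly on its replicates 1 and 2. WT_0d replicate 2 also had the highest summed FPKM of the 20 muscle genes in its group (372, against 186 and 141). The part of this in its *Nmrk2* level was not tested. The log2 change ran from 3.04 to 4.19 when a library was left out, with the highest value without WT_5d replicate 3. *Nmrk2* rose in PPARγ/+ cells by 3.06 (SE 0.28, adjusted p = 2.42e-04), and was at least 15.3-fold higher on 5d when each 0d library was set to a floor of 3 fragments. Such floors cover counting error only. *Nmrk2* made up 3.04%, 17.5% and 0% of the summed kinase FPKM in the WT_0d libraries and 63.9%, 64.1% and 18.4% in those of WT_5d. In PPARγ/+ cells the share was at most 2.22% on 0d and 27.4%, 37.4% and 33.4% on 5d. The exons of *Nmrk2* share 270 bases with those of *Atcayos*, a gene on the opposite strand, and the library kit does not mark strand, so fragments in the shared stretch cannot be told apart. *Atcayos* had at most 0.403 FPKM in any library, and it too was called higher on 5d in both cell types (log2 changes of 1.63 and 1.25).

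**Figure D2:**
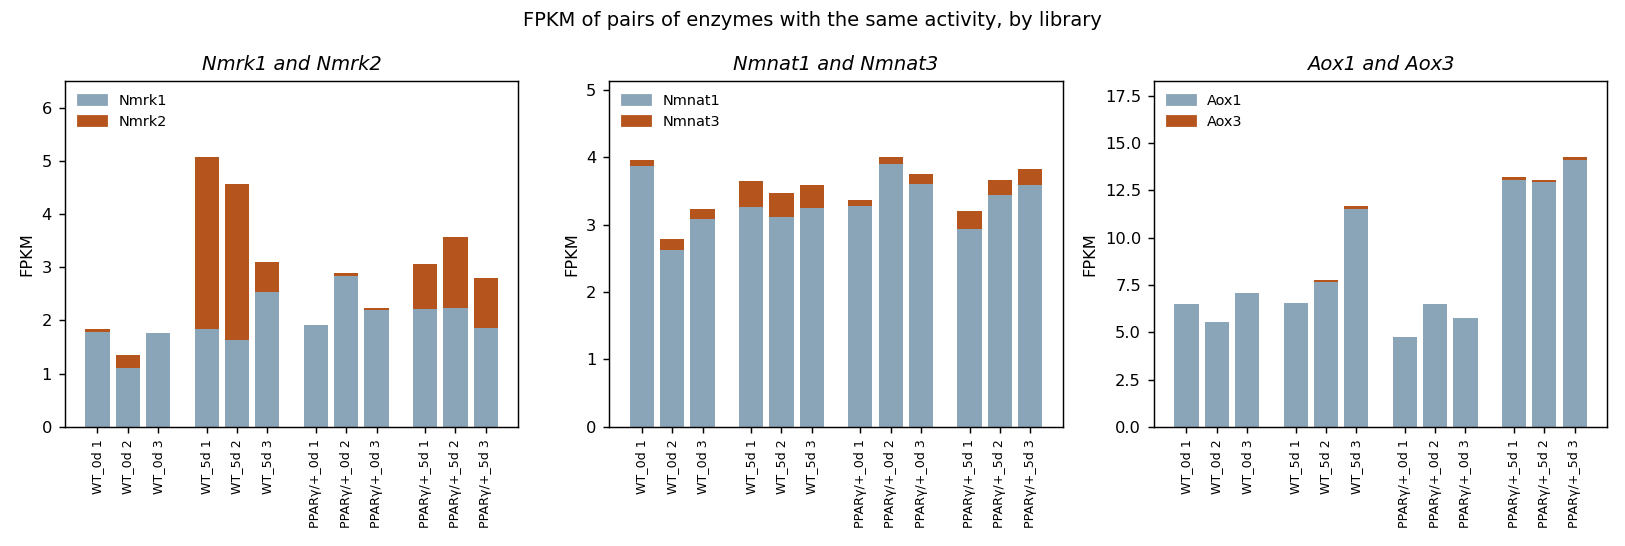
Stacked FPKM (vertical axis, from 0) of *Nmrk1* and *Nmrk2*, of *Nmnat1* and *Nmnat3*, and of *Aox1* and *Aox3* in each of the 12 libraries. *Nmrk2* made up over 60% of its pair in WT_5d replicates 1 and 2 and 18.4% in replicate 3, *Nmnat3* at most 10.7% of its pair, and *Aox3* at most 1.29%.

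*Nnmt* (ENSMUSG00000032271, chromosome 9 from 48591877 to 48605153) methylates nicotinamide with S-adenosylmethionine. Its FPKM was 1.05, 2.39 and 1.75 in WT_0d and 3.41, 3.49 and 3.29 in WT_5d. In PPARγ/+ cells it was 0.286, 0.535 and 0.697 on 0d and 3.18, 2.92 and 2.32 on 5d. The days did not overlap in either cell type, and the PPARγ/+_0d libraries were the lowest of all 12. *Nnmt* rose by 1.004 on the log2 scale in WT cells (SE 0.28, adjusted p = 0.0319), at the edge of the 2-fold threshold, and the ratio of means was 1.96. This call was lost without WT_0d replicate 1 (0.70), WT_5d replicate 1 (0.9998) or WT_5d replicate 2 (0.98). In PPARγ/+ cells *Nnmt* rose by 2.31 (SE 0.28, adjusted p = 7.75e-04), with a ratio of means of 5.55.

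The aldehyde oxidases oxidise methylated nicotinamide and many other ring compounds. *Aox1* (ENSMUSG00000063558, chromosome 1 from 58029931 to 58106413) had 6.48, 5.54 and 7.07 FPKM in WT_0d and 6.53, 7.66 and 11.5 in WT_5d. In PPARγ/+ cells it had 4.77, 6.50 and 5.74 on 0d and 13.1, 12.9 and 14.1 on 5d. The WT days overlapped and the PPARγ/+ days did not, and WT_5d replicate 3 was the WT library nearest to those of PPARγ/+_5d. *Aox1* rose in PPARγ/+ cells by 1.23 on the log2 scale (SE 0.11, adjusted p = 2.58e-04), a ratio of means of 2.36. Its log2 change in WT cells was 0.39 (SE 0.22, adjusted p = 0.211). *Aox3* (ENSMUSG00000064294, chromosome 1 from 58113130 to 58200698), its neighbour in the genome, had at most 3 fragments in any 0d library. It had 0.0279, 0.0884 and 0.137 FPKM in WT_5d and 0.130, 0.0926 and 0.184 in PPARγ/+_5d, from 5 to 24 fragments. Against a floor of 3 fragments in each 0d library its level was at least 4.43-fold higher on 5d in WT cells and 7.62-fold in PPARγ/+ cells. *Aox3* was called in PPARγ/+ cells (log2 change 1.14, SE 0.24, adjusted p = 0.00839) and not in WT cells (0.73, SE 0.30, adjusted p = 0.101). Since *Aox3* passed the filter only through its 5d libraries, its change was bound to be a rise. The call is therefore no test of its direction. The PPARγ/+ call was lost without PPARγ/+_5d replicate 3 (0.99) and with 1 added to the FPKM (0.17). In WT cells *Aox3* was called when 0.01 was added in place of 0.1 (2.32), and also by voom on the recovered fragments. The difference in its calls between the cell types therefore depended on the value added to the FPKM.

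*Nt5e* (ENSMUSG00000032420, chromosome 9 from 88327197 to 88372092), an enzyme of the cell surface best known for making adenosine from AMP, had much the same values in both cell types. Its FPKM was 0.355, 0.504 and 0.488 in WT_0d and 1.65, 1.13 and 1.05 in WT_5d. It was 0.317, 0.461 and 0.414 in PPARγ/+_0d and 1.30, 1.07 and 1.04 in PPARγ/+_5d. The days did not overlap, while the cell types overlapped on both days. *Nt5e* rose by 1.31 (SE 0.24, adjusted p = 0.00711) in WT cells and by 1.32 (SE 0.18, adjusted p = 0.00130) in PPARγ/+ cells on the log2 scale, and the 95% interval of the difference between these changes was −0.64 to 0.66.

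*Enpp1* (ENSMUSG00000037370, chromosome 10 from 24637914 to 24712159) makes AMP and pyrophosphate from ATP at the cell surface and is known as a regulator of mineral deposition. Its FPKM was 2.76, 3.75 and 3.28 in WT_0d and 11.2, 9.86 and 7.21 in WT_5d. It was 0.539, 0.931 and 1.04 in PPARγ/+_0d and 5.999, 5.68 and 5.19 in PPARγ/+_5d. None of the 4 groups overlapped another, and PPARγ/+ cells lay below WT cells on both days. *Enpp1* rose by 1.49 (SE 0.19, adjusted p = 0.00212) in WT cells and by 2.65 (SE 0.22, adjusted p = 1.79e-04) in PPARγ/+ cells on the log2 scale, which are ratios of means of 2.89 and 6.71.

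**Figure D3:**
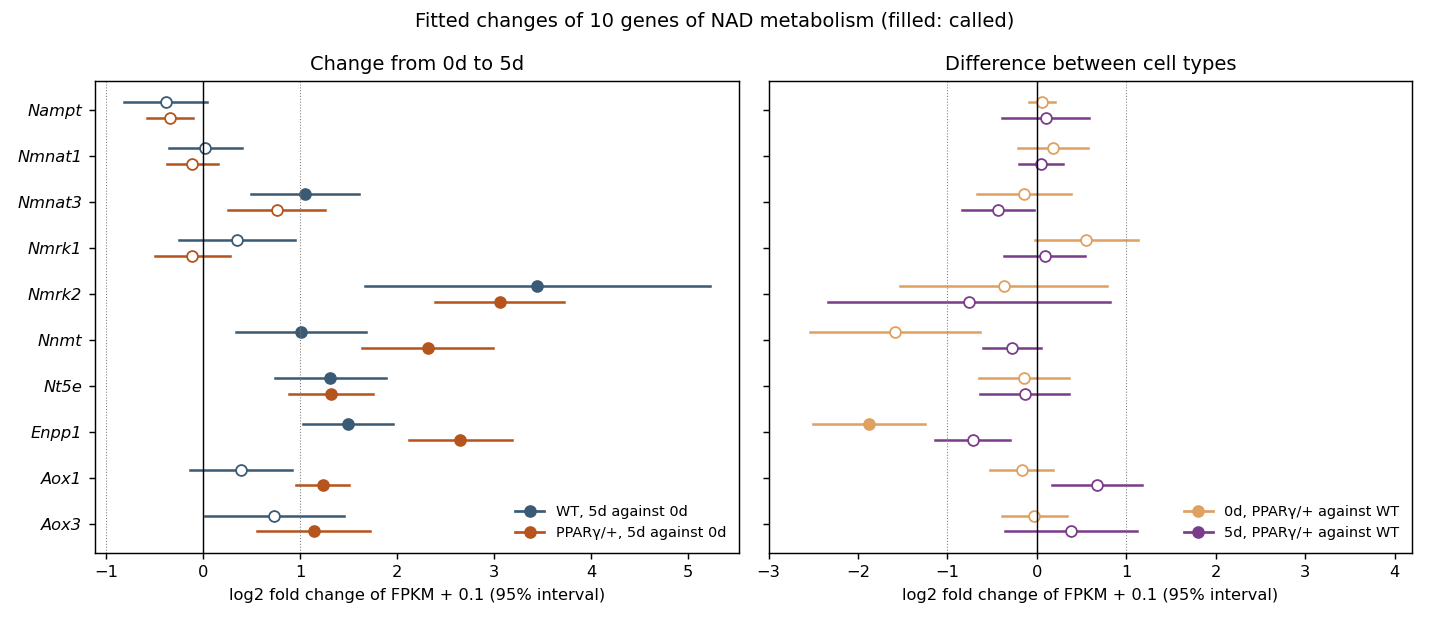
Log2 fold changes of FPKM + 0.1 (horizontal axis) with 95% intervals for the change from 0d to 5d in each cell type (left) and for PPARγ/+ against WT cells on each day (right), where filled points were called. Dotted lines mark a 2-fold change. *Nmrk2* had the largest change between days, and *Enpp1* on 0d was the 1 call between cell types.

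The difference between the cell types in their change over differentiation was tested as an interaction across the 12 libraries, with calls at an adjusted p of at most 0.05. None of the 10 genes passed by limma, nor by voom on the recovered fragments, while 0.76% of all genes passed. An unadjusted p under 0.05 by limma was found for 3 of the 10 genes and for 12.01% of all genes. The largest interaction terms were those of *Nnmt* (log2 1.31, SE 0.42, unadjusted p = 0.00962, adjusted p = 0.226), *Enpp1* (1.16, SE 0.31, unadjusted p = 0.00336, adjusted p = 0.143) and *Aox1* (0.84, SE 0.26, unadjusted p = 0.00785, adjusted p = 0.205), all with the greater rise in PPARγ/+ cells. For *Nampt*, *Nmnat1*, *Nmnat3*, *Nmrk1*, *Nmrk2*, *Nt5e* and *Aox3* the adjusted p was at least 0.607. With weights for the quality of each library, *Aox1* (adjusted p = 0.00604), *Enpp1* (0.0152) and *Nnmt* (0.0320) all passed, as did 11.5% of all genes.

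On 0d the cell types were compared at an adjusted p of at most 0.05 and a change of at least 2-fold, and 1 of the 10 genes was called, while 1.23% of all genes were called lower in PPARγ/+_0d. *Enpp1* was lower in PPARγ/+_0d, by −1.87 on the log2 scale (SE 0.26, adjusted p = 0.0243), a mean level 3.89-fold lower. The call was lost, with adjusted p between 0.0612 and 0.0894, in 5 of the 6 fits that left out 1 library, and held without PPARγ/+_0d replicate 1 (adjusted p = 0.0412). *Nnmt* was 3.42-fold lower in mean level in PPARγ/+_0d, without overlap, and did not pass (log2 −1.59, SE 0.39, adjusted p = 0.0855). It passed when all 12 libraries entered 1 fit (adjusted p = 0.0125). *Nmrk1* lay higher in every PPARγ/+_0d library than in any WT_0d library, with a log2 difference of 0.56 (SE 0.23, adjusted p = 0.242). Libraries of the cell types did not overlap for these 3 genes, against 26.8% of all genes. For *Nampt*, *Nmnat1*, *Nmnat3*, *Nmrk2*, *Nt5e*, *Aox1* and *Aox3* the adjusted p was at least 0.543.

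On 5d none of the 10 genes was called between the cell types by limma or voom, and 0.155% of all genes were called. An unadjusted p under 0.05 was found for 3 of the 10 genes and for 12.7% of all genes. Libraries of the cell types did not overlap for 4 of the 10 genes, against 18.5% of all genes. *Enpp1* was 1.68-fold lower in mean level in PPARγ/+_5d (log2 −0.72, SE 0.17, adjusted p = 0.197) and *Nmnat3* 1.49-fold lower (−0.44, SE 0.16, adjusted p = 0.364). *Aox1* was 1.56-fold higher in PPARγ/+_5d (0.68, SE 0.21, adjusted p = 0.289). For *Nmrk2* the log2 difference was −0.76 with a 95% interval of −2.34 to 0.81, an interval that holds both equal levels and a level several-fold lower in PPARγ/+_5d. For *Nampt*, *Nmnat1*, *Nmrk1*, *Nnmt*, *Nt5e* and *Aox3* the adjusted p was at least 0.436.

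The comparison on 5d turned on WT_5d replicate 3. Without it *Nmrk2* was lower in PPARγ/+_5d by −1.51 on the log2 scale (adjusted p = 0.0246) and was called. *Enpp1* (−0.90, adjusted p = 0.0132) and *Aox1* (0.91, adjusted p = 0.0110) then passed the adjusted p but not 2-fold, and the interaction of *Aox1* was 1.08 (adjusted p = 0.0154) and was called. Leaving out this library raised the calls among all genes from 28 to 723 on 5d and from 137 to 527 in the interaction. In the 6 libraries of 5d, *Myog*, a myogenic transcription factor, was at 271, 215 and 90.01 FPKM in WT_5d and between 78.8 and 90.3 in PPARγ/+_5d. Replicate 3 lay with the PPARγ/+_5d libraries in *Myog* and in the summed level of the 20 muscle genes, and between them and the rest of its own group in *Enpp1* and *Aox1*. For single muscle genes this was not always so, since *Myh3*, an embryonic myosin, was at 87.9 FPKM in replicate 3 and between 42.2 and 56.1 in PPARγ/+_5d. The part of this split in the values of the 10 genes was not tested.

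**Figure D4:**
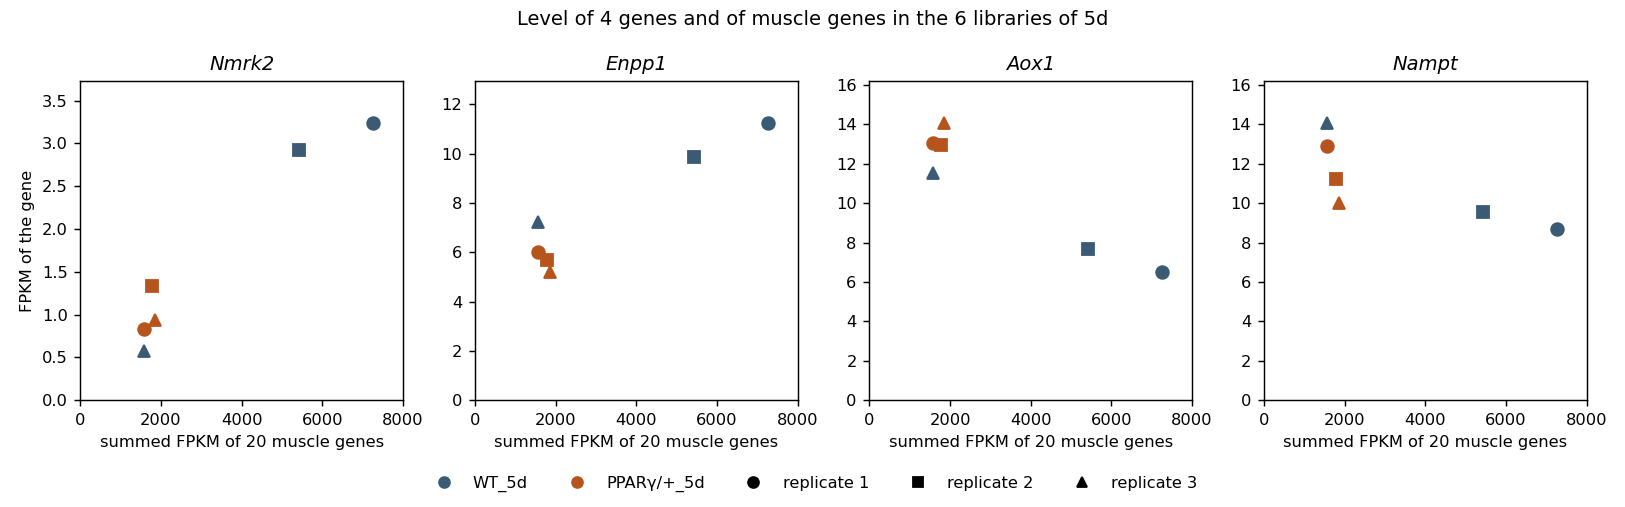
FPKM of *Nmrk2*, *Enpp1*, *Aox1* and *Nampt* (vertical axes, from 0) against the summed FPKM of 20 muscle genes (horizontal axis) in the 6 libraries of 5d. WT_5d replicates 1 and 2 lay at 7257 and 5423, and WT_5d replicate 3 lay at 1568 beside the PPARγ/+_5d libraries.

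Between genes, levels were compared per transcript length as FPKM. In WT_0d *Nampt* (13.8 ± 0.265, SD, n = 3) was followed by *Aox1* (6.36 ± 0.769), *Enpp1* (3.26 ± 0.491) and *Nmnat1*, and the levels of *Enpp1* and *Nmnat1* overlapped. *Nnmt* and *Nmrk1* overlapped next, then came *Nt5e* (0.449 ± 0.0816), and *Nmnat3*, *Nmrk2* and *Aox3* were at the end of the order, each overlapping the next. In WT_5d *Nampt* (10.8 ± 2.88), *Enpp1* (9.44 ± 2.05) and *Aox1* (8.57 ± 2.62) overlapped at the head, and the mean of *Nmrk2* (2.25 ± 1.46) lay next to that of *Nmrk1*, with *Nmrk2* above *Nmrk1* in replicates 1 and 2 and below it in replicate 3. In PPARγ/+_0d *Enpp1* (0.838 ± 0.265) lay below *Nmrk1* (2.32 ± 0.467) and overlapped *Nnmt* (0.506 ± 0.207). In PPARγ/+_5d *Aox1* (13.4 ± 0.629) stood above *Nampt* (11.4 ± 1.44) without overlap, and *Enpp1* (5.62 ± 0.405) came after them.

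Other genes of NAD metabolism were counted by the same rules, and their list too was chosen with earlier results of these data known. Of 56 other listed genes 54 had a row, and 38 passed the filter. In each cell type 0 of the 38 were called higher and 1 was called lower from 0d to 5d, with a median log2 change of 0.08 in WT cells and 0.02 in PPARγ/+ cells. No gene of the list was called by limma between the cell types on either day or in the interaction, where 8, 5 and 6 of the 38 had an unadjusted p under 0.05 on 0d, on 5d and in the interaction, against 21.7%, 12.7% and 12.01% of all genes. The gene called lower was *Ahcy*, which clears the S-adenosylhomocysteine that methyltransferases such as Nnmt leave behind. It fell from 31.8 ± 2.26 to 8.73 ± 1.59 FPKM in WT cells (log2 −1.87, SE 0.15, adjusted p = 3.87e-04) and from 21.6 ± 2.18 to 7.74 ± 0.227 in PPARγ/+ cells (−1.46, SE 0.08, adjusted p = 4.03e-05).

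By role, no gene was called higher or lower in any group of the list other than the supply of methyl donors. The 3 tested genes of the synthesis from tryptophan stayed under 1 FPKM in every group mean, and the 9 listed genes summed to at most 1.45 FPKM in a library. Glycohydrolases and further aldehyde oxidases, *Cd38* among them, summed to at most 0.473 FPKM. All 7 sirtuins reached 1 FPKM in every group and 7 of them had an unadjusted p under 0.05 in WT cells and 5 in PPARγ/+ cells, none with a 2-fold change, while 46.8% and 54.4% of all genes had such a p. *Nadk*, which makes NADP from NAD, and *Parp1*, a main NAD consumer, were named after their values were seen. *Nadk* had 46.5 ± 0.71 FPKM in WT_0d and 23.5 ± 1.36 in WT_5d, with a log2 change of −0.99 just short of 2-fold, and 44.3 ± 0.833 and 26.6 ± 1.97 in PPARγ/+ cells, with a log2 change of −0.74. *Parp1* had 21.5 ± 1.75 and 12.2 ± 0.336 FPKM in WT cells and 19.7 ± 2.52 and 10.97 ± 0.171 in PPARγ/+ cells, with log2 changes of −0.81 and −0.83. These 2 genes do not stand for their groups. Of the 5 listed poly-ADP-ribose polymerases 1, *Parp3*, had a positive log2 change in WT (0.70) and in PPARγ/+ cells (0.02). *Nadk2*, the other listed NAD kinase, also had positive changes (0.17 and 0.33).

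**Figure D5:**
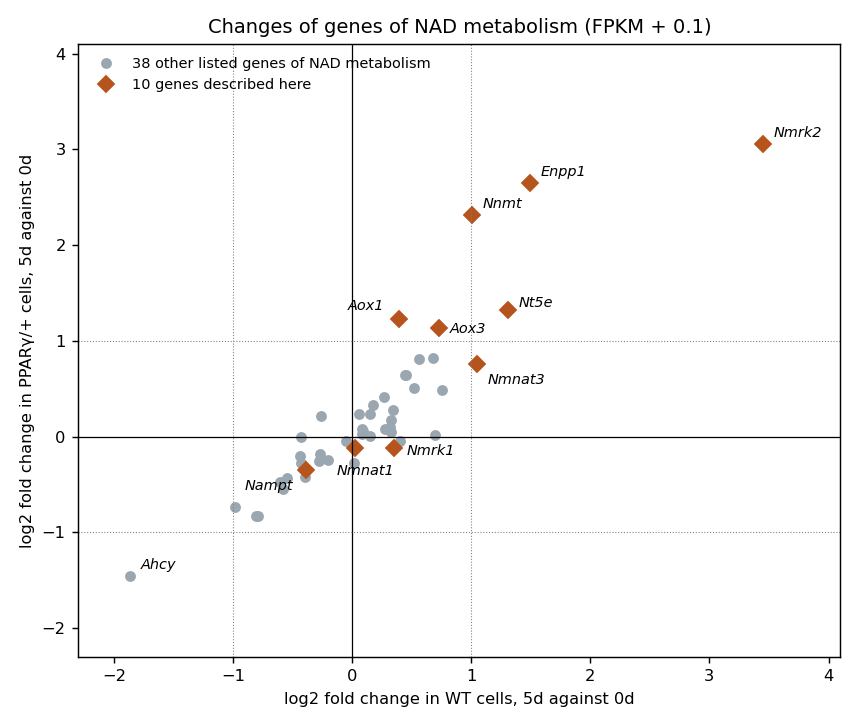
Log2 fold change from 0d to 5d in WT cells (horizontal axis) and in PPARγ/+ cells (vertical axis) for the 10 genes (diamonds) and 38 other listed genes of NAD metabolism (circles). Dotted lines mark a 2-fold change, and *Ahcy* is the one circle beyond them on both axes.

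Over the 12 libraries, the genes most like each called gene with a mean of at least 1 FPKM were found by Pearson's r on log2(FPKM + 0.1) among 12399 genes. The points share the same 4 groups, so high values are common. *Nmrk2* was most like *Gm2830* (r = 0.991) and *Nrap* (0.991), a muscle gene of the growing myofibril. *Enpp1* was most like *Pknox2* (0.983) and *Adamts6* (0.979), *Nt5e* like *Fam107a* (0.983) and *Spata13* (0.982), and *Aox1* like *Sat1* (0.964) and *Cyp2c23* (0.949). *Nnmt* was most like *Lrrc17* (0.9748), and second to it came *Enpp1* (0.9748), itself one of the 10 genes.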

How the data were processed

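RNA of C2C12 cells was sequenced in 12 libraries, 3 in each of 4 groups named by the labels. Per its methods the study used Trim Galore for trimming, STAR for alignment and HTSeq for counts on Ensembl genes. Their methods name GRCm38, whereas the submitters' processing notes name mm9. The deposited values used here are FPKM as calculated by the authors. A further deposited table holds log2(FPKM + 1), equal to the FPKM table within 5.3e-14 and left untested. No 2 libraries held the same values.

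Fragments were recovered as FPKM times exonic length times mapped pairs. The annotated length of GENCODE gave whole numbers (within 0.001) for 21058 of 27138 genes above 0, and for 6074 the shortest length that gives whole numbers was inferred, as for *Nampt*, *Nmrk1*, *Nmrk2* and *Nt5e*. The fragments served for depths, floors and one alternative test.

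limma 3.58.1 (R 4.3.3, empirical Bayes with trend) was fitted to log2(FPKM + 0.1) of all 18023 genes that passed the filter. Each pair of groups was fitted on its own 6 libraries, and p-values were adjusted by Benjamini-Hochberg over all genes. The thresholds between days, a 2-fold change with an unadjusted p-value up to 0.05, are those of the study's methods. The scripts were tested on simulated data. Python 3.11.15 with pandas 2.3.3 and numpy 2.4.6 served for tables, matplotlib 3.10.9 for plots.

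All 10 genes were tested in every comparison. Of the further genes of NAD metabolism every called one is named, and for each called gene with a mean of at least 1 FPKM the 2 genes with the highest r. The 10 genes, the further lists and the marker lists were chosen with earlier results of these data known. Osteoblast and chondrocyte markers (10 genes) summed to 12.3 to 35.4 FPKM.

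The alternatives were other values added to the FPKM, no filter or a stricter one, median-ratio scaling, quantile normalization, voom on the recovered fragments, library weights, the replicate number as a block, all 12 libraries in one fit, the other kind of p-value and leaving out each library.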

Additional observations from a re-analysis of the deposited data

How the results depend on the processing

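All 12 calls of the 10 genes kept their direction under median-ratio scaling and quantile normalization. Median-ratio scaling moved the median log2 change of all genes from −0.08 to 0.02 in WT cells and from −0.10 to 0.02 in PPARγ/+ cells, and it turned the small changes of *Nmnat1* and *Nmrk1* in PPARγ/+ cells to 0.012 and 0.0081. Of 520 fitted changes under alternatives that kept all libraries, 494 kept direction and side of the threshold, 11 lost a call, 11 gained one and 4 turned sign. The interaction of *Nt5e* turned to −0.031 with 1 added to the FPKM and to −0.059 under quantile normalization. The cause of these shifts was not tested, except that adding 1 draws the changes of low genes toward 0 by construction.

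The number of the 10 genes called in WT cells between days (5) was 2 with 1 added to the FPKM, 3 with library weights and 3 to 5 when a library was left out, with 3 without WT_0d replicate 1. In PPARγ/+ cells (6) it was 3 with 1 added and 5 to 6 when a library was left out. In the interaction (0) it was 3 with library weights and 0 to 1 when a library was left out. On 0d (1) it was 0 without a filter and with the replicate block, 2 with a filter at 1 FPKM, with voom, with all 12 libraries in one fit and with unadjusted p-values, and 0 to 1 when a library was left out. On 5d (0) it was 0 to 1 when a library was left out.

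Calls among all genes in WT cells (2970) went to 1441 and in PPARγ/+ cells (2735) to 1241 with 1 added, and in PPARγ/+ cells to 1806 with a filter at 1 FPKM. In the interaction (137) there were 2070 with library weights and 61 with the replicate block, and 42 to 527 when a library was left out. On 0d (287) there were 115 with 1 added, 107 without a filter, 485 with voom, 0 with the replicate block, 661 with unadjusted p-values and 55 to 137 when a library was left out. On 5d (28) there were 8 with 1 added, 71 with 0.01 added, 502 with library weights, 0 with the replicate block, 199 with all 12 libraries, 606 with unadjusted p-values and 1 to 723 when a library was left out.

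Of 360 fitted changes with 1 library left out 327 kept direction and side, and 21 turned sign, all of them with a main change under 0.5 in size. The ranges were −0.081 to 0.041 for *Aox3* and −0.77 to 0.11 for *Nmrk2* on 0d, −0.037 to 0.31 for *Nampt*, −0.011 to 0.13 for *Nmnat1*, −0.035 to 0.26 for *Nmrk1* and −0.25 to 0.051 for *Nt5e* on 5d. In the interaction they were −0.10 to 0.25 for *Nampt*, −1.14 to 0.019 for *Nmrk2* and −0.11 to 0.19 for *Nt5e*. Between days they were −0.11 to 0.16 for *Nmnat1* in WT cells and −0.24 to 0.032 for *Nmrk1* in PPARγ/+ cells.

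Libraries share replicate numbers across groups, but the 18 correlations of same-numbered libraries in their deviations from the group means lay between −0.07 and 0.08, none over 0.1, so the numbers were not taken to pair the libraries. The block took the *Enpp1* call on 0d to an adjusted p of 0.131. *Aox3* and *Nmrk2* on 0d rest on few fragments, and their depth sets no more than a bound there.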
